A study of Mus musculus with 6 samples.

Results

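Arih1, Vps37b, Rrm1, Eftud2, Nup210l, Ncapd3, Ell2, Eprs, Coq10b and Mapk4 are 10 of the 31053 genes counted in single nuclei sorted from mouse colon. They were selected on these same libraries, because their transcripts were higher after restraint stress in enteric glia and not, or less so, in enteric neurons. The Stress to Control differences in glia, in neurons and between them are therefore given as a description with no test. All 10 symbols were found in all 6 libraries, each with 1 gene identifier.

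Nuclei came from the whole colon of C57BL/6J mice labelled wild type and were sorted on DAPI, a DNA stain, and on INTACT, a nuclear tag used here to enrich the enteric nervous system. The 3 Stress libraries (Stress 1, 2 and 3) came from mice restrained daily for 7 days, the 1 Dexamethasone library from mice injected with this synthetic glucocorticoid for 7 days, and the 2 Control libraries (Control 1 and 2) from mice labelled as controls. The driver of the nuclear tag, the age of the mice and the number of animals in a library are not given in the sources used here. Nothing in the labels states that libraries of a group are separate animals; the p-values below therefore speak only of how much these libraries vary, which may be technical.

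Enteric glia are neural crest-derived support cells that surround neurons in the gut wall and respond to injury, inflammation and stress signals. The 10 genes share no pathway in the textbook sense and belong to different machines of the cell. Arih1 encodes a ubiquitin ligase of the RING-between-RING class that works together with cullin ligases, and Vps37b a subunit of ESCRT-I, which sorts ubiquitinated membrane proteins. Ell2 is an elongation factor of RNA polymerase II in the super elongation complex, Eftud2 a GTPase of the U5 particle of the spliceosome, and Eprs joins glutamate and proline to their tRNAs. Rrm1 is the large subunit of ribonucleotide reductase, which makes deoxynucleotides, and Ncapd3 a subunit of condensin II, which folds chromosomes. Nup210l is a relative of the pore membrane protein Nup210, Coq10b a coenzyme Q-binding protein of mitochondria, and Mapk4 (also called ERK4) an atypical MAP kinase.

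The genes lie apart in the genome. In GENCODE M21 on the GRCm38 build, Arih1 spans chr9:59388258-59486618 on the minus strand, Vps37b chr5:124004641-124032270 on the minus strand and Rrm1 chr7:102441695-102469771 on the plus strand. Eftud2 spans chr11:102838473-102880985 (minus), Nup210l chr3:90104132-90212048 (plus), Ncapd3 chr9:27030175-27095315 (plus) and Ell2 chr13:75706757-75772364 (plus). Eprs spans chr1:185363044-185428360 (plus) and Coq10b chr1:55052770-55072702 (plus), and all 10 genes are annotated as protein coding. Vps37b overlaps Hip1r and Gm37939 on the other strand, Eftud2 overlaps Gm26668, Ell2 overlaps 1700037F03Rik, Coq10b overlaps E330011M16Rik and Mapk4 overlaps D730045A05Rik and Gm9925 in the same way. On their own strand, Rrm1 overlaps Gm45399, Nup210l overlaps Gm23723, Gm43712 and Gm24185, Ell2 overlaps Gm48302 and Gm23127, and Coq10b overlaps Gm17971. Whether counting used strand is not given in the sources used here, so reads of such partners cannot be told apart.

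Because the genes were chosen for moving together, the start of each was read for short motifs in the RefSeq promoter table (GRCm38.p6; 250 bases before to 50 after the start), from which 7 promoters of 6 of the 10 genes were read. Both strands were searched for the cAMP response element TGACGTCA, the shorter core TGACG of that element, the NR4A element AAAGGTCA, the glucocorticoid receptor motif AGAACA and the AP-1 element TGANTCA. The full cAMP response element was present in 1.79% of all 32851 promoters of that table and, among the genes described here, in Ell2. The core was present in 20.8% of all promoters and in Coq10b, Ell2, Eprs and both promoters of Ncapd3; in Ell2, 2 of its 4 matches lie within the full element. AGAACA was present in 19.0% of all promoters and in Rrm1. AAAGGTCA (1.51% of all) and TGANTCA (7.81% of all) matched none of the 7 promoters, and no motif matched in Arih1. These matches are letters in a window and carry no measurement of binding. The stretches below are the 3 of these promoters with more than 1 core, each on the plus strand, 5′ to 3′, with the core or its reverse complement (in Ell2 the full element) in capitals; they are chr1:55052520-55052769 for Coq10b, chr1:185362794-185363043 for Eprs and chr13:75707275-75707304 for Ell2.
Coq10b: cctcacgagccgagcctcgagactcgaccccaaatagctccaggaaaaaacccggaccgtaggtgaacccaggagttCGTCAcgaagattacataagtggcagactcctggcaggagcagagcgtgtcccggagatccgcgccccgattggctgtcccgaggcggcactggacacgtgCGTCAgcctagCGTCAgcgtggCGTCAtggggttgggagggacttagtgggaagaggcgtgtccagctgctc
Eprs: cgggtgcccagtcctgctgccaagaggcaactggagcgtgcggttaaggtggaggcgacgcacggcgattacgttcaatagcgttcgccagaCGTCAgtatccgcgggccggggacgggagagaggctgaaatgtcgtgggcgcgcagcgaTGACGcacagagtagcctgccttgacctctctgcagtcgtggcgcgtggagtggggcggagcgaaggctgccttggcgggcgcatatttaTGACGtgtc
Ell2: aagacgagacaTGACGTCAgataagattaa

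After filtering, 3430 of 11040 barcodes were kept as nuclei, of which 881 in 3 clusters were called glia-like and 463 neuron-like. Glia-like nuclei numbered 124, 118 and 184 in Stress 1, 2 and 3, 114 in the Dexamethasone library and 203 and 138 in Control 1 and 2, with 310277 to 873097 unique molecular identifiers (UMIs, counted transcripts) per library. Glial identity held against its markers: Cdh19 was seen in 95.3% to 99.5% of the nuclei of the 3 clusters and in 7.02% of the other 2549 nuclei, and Lgi4 in 36.5% to 51.6%, against 1.57%. Library totals were 6057994 to 14838057 UMIs, and the median mitochondrially encoded share per barcode was 4.44% to 13.4% in Stress libraries, 5.98% in the Dexamethasone library and 8.80% and 19.8% in Control libraries. No 2 libraries shared more than 1 kept barcode. Levels below are CPM, the UMIs of a gene scaled to the same total of UMIs in each class and library, which are not divided by gene length and so are compared between libraries and classes, never between genes.

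Arih1 had the most UMIs of the 10 genes. In glia-like nuclei it stood at 2224, 3332 and 3528 CPM in Stress 1, 2 and 3 and at 9813 CPM in the Dexamethasone library, against 614 and 363 CPM in Control 1 and 2. Every Stress library was thus above both Control libraries, and the Dexamethasone library was above all Stress libraries. The exact 95% Poisson intervals, which cover counting error only, were 9579 to 10052 CPM in the Dexamethasone library, against 545 to 690 CPM in Control 1 and 309 to 424 CPM in Control 2. At least 1 Arih1 UMI was seen in 63.7%, 84.7% and 89.7% of nuclei in Stress and in 93.9% in Dexamethasone, against 54.7% and 63.0% in Control. These shares also depend on depth, which was not made equal here. The median glia-like nucleus had 1696, 3810.5 and 4478 UMIs in Stress and 5556 in Dexamethasone, against 2124 and 3112 in Control. The fitted Stress to Control log2 fold change of 2.59 ± 0.27 (SE), about 6.01-fold, is part of what chose the gene.

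Vps37b, the other gene of ubiquitin handling, had 483, 620 and 678 CPM in Stress libraries and 349 CPM in the Dexamethasone library, against 91.7 and 86.7 CPM in Control libraries. The groups did not overlap, and here the Dexamethasone value lay under every Stress value. Its Stress to Control log2 fold change was 2.70 ± 0.24.

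Among genes of transcription, splicing and translation, Ell2 had 219, 465 and 456 CPM in Stress libraries and 733 CPM in the Dexamethasone library, against 109 and 59.3 CPM in Control libraries. Eftud2 had 145, 283 and 168 CPM in Stress libraries and 1126 CPM in the Dexamethasone library, against 70.4 and 89.0 CPM in Control libraries. Eprs had 367, 335 and 843 CPM in Stress libraries and 643 CPM in the Dexamethasone library, against 137 and 25.1 CPM in Control libraries. All 3 were above Control in every Stress library, but by unlike margins: Eftud2 had the smallest Stress to Control log2 fold change of the 10 genes (1.28 ± 0.29), against 2.14 ± 0.34 for Ell2 and 2.64 ± 0.51 for Eprs. Of these 3 genes, the Control libraries differed most, relative to their mean, for Eprs (80.8 ± 78.8 CPM, SD, n = 2), and its log2 fold change was 4.34 without Control 1, 1.90 without Control 2 and 2.05 without Stress 3.

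The 2 genes tied to DNA, Rrm1 and Ncapd3, were low in Control glia. Rrm1 stood at 122, 165 and 167 CPM in Stress libraries and at 331 CPM in the Dexamethasone library, against 14.9 and 18.3 CPM (7 and 8 UMIs) in Control libraries. Ncapd3 stood at 93.5, 121 and 135 CPM in Stress libraries and at 375 CPM in the Dexamethasone library, against 25.6 and 27.4 CPM in Control libraries. Both genes thus had close replicates and no overlap, with Stress to Control log2 fold changes of 3.16 ± 0.32 for Rrm1 and 2.12 ± 0.31 for Ncapd3. Rrm1 averaged 152 ± 25.3 CPM in Stress (SD, n = 3) and 16.6 ± 2.35 CPM in Control (SD, n = 2).

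Nup210l had 64.5, 64.9 and 49.2 CPM in Stress libraries and 427 CPM in the Dexamethasone library, against 2.13 and 16.0 CPM in Control libraries. The Control values rest on 1 and 7 UMIs, and the fitted Stress to Control log2 fold change of 2.64 ± 0.53 was 4.58 without Control 2 and 1.81 without Control 1. Coq10b had 335, 494 and 506 CPM in Stress libraries and 310 CPM in the Dexamethasone library, against 117 and 95.8 CPM in Control libraries, a Stress to Control log2 fold change of 2.03 ± 0.24. As with Vps37b, its Dexamethasone value lay under every Stress value. Mapk4 had 35.5, 37.7 and 65.3 CPM in Stress libraries and 69.1 CPM in the Dexamethasone library, against 10.7 and 2.28 CPM (5 UMIs and 1 UMI) in Control libraries. Its log2 fold change of 2.79 ± 0.58 was 4.25 without Control 1 and 2.12 without Control 2.

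Over the 10 genes, each Stress library and the Dexamethasone library lay above both Control libraries, with no overlap. Of the genes with at least 5 UMIs over the libraries compared, 14.4% had all Stress libraries above both Control libraries and 33.1% had the Dexamethasone library above both. Of the 6545 genes tested between Stress and Control in glia-like nuclei, 1.53% were called higher at an adjusted p under 0.05. All 10 members passed the filter on low counts there; since the Stress contrast chose them, nothing is read from these shares.

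**Figure D1:**
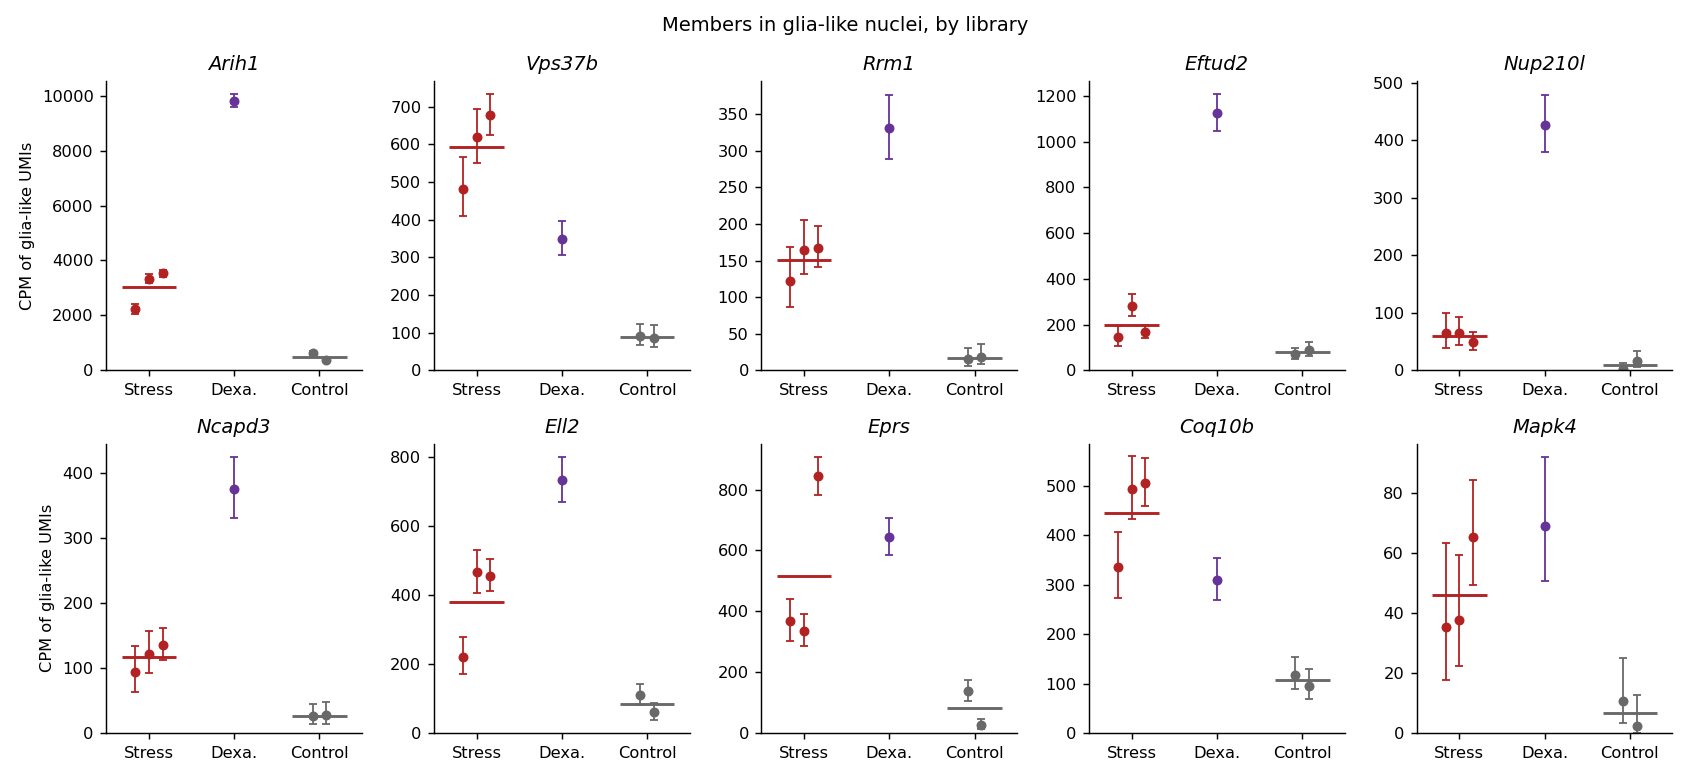
Level of each of the 10 genes in glia-like nuclei, 1 panel per gene, in CPM on a linear axis from 0 that differs between panels; each point is a library (3 Stress, 1 Dexamethasone, 2 Control) with its exact 95% Poisson interval, and horizontal lines are group means. In every panel all Stress and Dexamethasone points lie above both Control points, and for Vps37b and Coq10b the Dexamethasone point lies below the Stress points.

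All 10 genes were higher in Dexamethasone than in Control glia-like nuclei. This contrast did not choose the genes, although it shares its Control libraries with the one that did, and the lone Dexamethasone library is taken to have the same spread as the rest in a fit over all 6. With edgeR's quasi-likelihood test and Benjamini-Hochberg adjustment over all 7699 genes tested, 10 of 10 were called higher, where 5.44% of all genes were. The genes were chosen in part for low values in these Control libraries, and Nup210l, Mapk4 and Rrm1, with 1 to 8 UMIs per Control library, passed the filter on low counts through the groups in which they are high, so nothing is read from that count. The Dexamethasone counts were made with Cell Ranger 5.0.1 and all others with 4.0.0, so the treatment and the software version cannot be told apart.

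Arih1 was 21.3-fold higher in Dexamethasone glia-like nuclei than in Control (log2 fold change 4.41 ± 0.32, SE; adjusted p 2.71e-07). Nup210l, which had 8 Control UMIs in all, rose by 5.65 ± 0.44 (log2; adjusted p 3.58e-07), Rrm1 by 4.39 ± 0.35 (adjusted p 3.93e-07), Eftud2 by 3.91 ± 0.33 (adjusted p 5.70e-07) and Ncapd3 by 3.90 ± 0.32 (adjusted p 5.54e-07). For Mapk4 the log2 fold change was 3.43 ± 0.61 (adjusted p 0.00146), for Ell2 3.20 ± 0.38 (adjusted p 3.66e-05) and for Eprs 3.05 ± 0.55 (adjusted p 0.00164). The smallest differences were those of Vps37b, 2.05 ± 0.30 (adjusted p 2.55e-04), and Coq10b, 1.63 ± 0.31 (adjusted p 0.00247). DESeq2 called 9 of the 10, leaving out Eprs. The choice of the genes drew on these same Control libraries. The adjusted p-values in this paragraph are therefore a description, and no call is read from them. Single Control libraries weighed on 3 of these values: without Control 1 and without Control 2, the log2 fold change was 4.82 and 7.58 for Nup210l, 4.77 and 2.31 for Eprs and 4.89 and 2.75 for Mapk4. That of Nup210l was 7.27 under the stricter filter on nuclei and 4.23 with no mitochondrial filter.

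Between Dexamethasone and Stress glia-like nuclei 5 of the 10 genes were called, all higher in Dexamethasone. Of the 7699 genes tested, 2.90% were called higher in that direction. This contrast shares the Stress libraries with the one that chose the genes, which enter here on the side that was high. Nup210l and Rrm1, with 1 to 8 UMIs per Control library, passed the filter on low counts through the groups in which they are high. The calls and adjusted p-values of this contrast are therefore a description. By edgeR's quasi-likelihood test, Nup210l was 8.09-fold higher in Dexamethasone (log2 3.02 ± 0.30, adjusted p 1.17e-05), Eftud2 6.23-fold (2.64 ± 0.27, adjusted p 1.85e-05) and Arih1 3.57-fold (1.84 ± 0.28, adjusted p 6.69e-04). Ncapd3 was 3.46-fold higher (1.79 ± 0.25, adjusted p 3.25e-04) and Rrm1 2.37-fold higher (1.24 ± 0.25, adjusted p 0.00804). Rrm1 lost its call with DESeq2, under the stricter filter on nuclei and with no mitochondrial filter. The groups also differed in makeup: glia-like cluster 12, described below, held 69.3% of the glia-like nuclei in Dexamethasone. It held 8.06%, 22.9% and 43.5% in Stress 1, 2 and 3. Within glia-like cluster 11 alone, Eftud2 was the only gene of the list called.

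The other 5 genes were not called between Dexamethasone and Stress. Their log2 differences were 1.07 ± 0.32 for Ell2 (adjusted p 0.0929), 0.64 ± 0.42 for Mapk4 (0.547), 0.43 ± 0.47 for Eprs (0.766), -0.39 ± 0.28 for Coq10b (0.601) and -0.63 ± 0.27 for Vps37b (0.287), all adjusted p-values from the same edgeR fit. Ell2 passed the threshold when either Control library was left out, under the stricter filter on nuclei (edgeR adjusted p 0.0268) and with the replicate number as a block (0.0321). At the ends of this order stood Nup210l and Eftud2 above and Vps37b and Coq10b below, whose Dexamethasone levels lay under their Stress levels without passing the test.

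**Figure D2:**
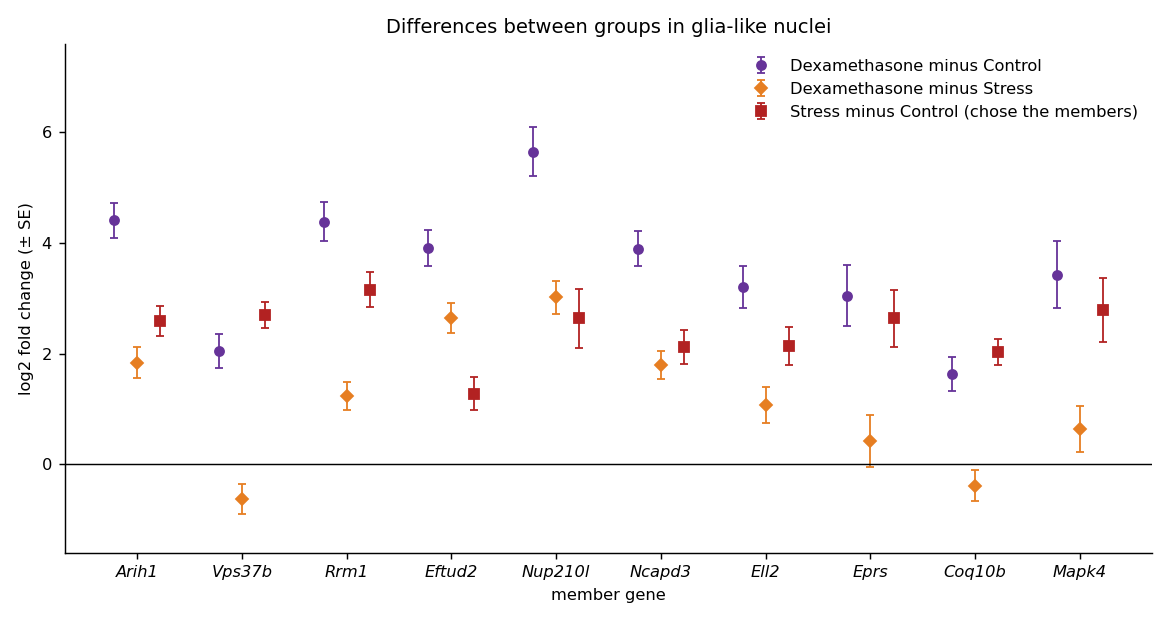
Fitted log2 fold changes (y axis, points with SE bars) of the 10 genes (x axis) in glia-like nuclei for Dexamethasone minus Control (circles), Dexamethasone minus Stress (diamonds) and Stress minus Control (squares). All Dexamethasone minus Control values lie between 1.63 (Coq10b) and 5.65 (Nup210l); the Stress minus Control values were part of how the genes were chosen.

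The 3 glia-like clusters held different parts of the groups, so each gene was also read within a cluster. The genes listed here were kept out of the clustering. Cluster 12 (79 Dexamethasone nuclei; 10, 27 and 80 Stress nuclei; 9 and 8 Control nuclei) was led by Arih1, Rnf122, Nup210l, Nr4a3 and Apod even so. Cluster 11 (23 Dexamethasone; 98, 65 and 71 Stress; 164 and 111 Control nuclei) was led by genes such as Col11a1 and Frzb, and cluster 9 (12 Dexamethasone; 16, 26 and 33 Stress; 30 and 19 Control nuclei) by Col28a1, Kcna1 and Scn7a. Most Dexamethasone glia-like nuclei are therefore in cluster 12 and most Control ones in cluster 11.

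In cluster 12, Arih1 had 4630, 4093 and 4788 CPM in Stress libraries and 12884 CPM in the Dexamethasone library, against 935 and 707 CPM in Control libraries. Ell2 had 403, 692 and 627 CPM in Stress libraries and 958 CPM in the Dexamethasone library, against 66.8 and 58.9 CPM in Control libraries, and Nup210l had 66.9 to 176 CPM in Stress libraries and 571 CPM in the Dexamethasone library, against no UMI in either Control library. Of the 10 genes, 9 (all but Eftud2) had every Stress library above both Control libraries, against 14.3% of all genes, and 10 had the Dexamethasone library above both, against 34.5%. Eftud2 had 126, 402 and 236 CPM in Stress libraries and 1364 CPM in the Dexamethasone library, against 178 and 294 CPM in Control libraries, so in this cluster it was Dexamethasone alone that stood clear of Control.

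In cluster 11, Arih1 had 2063, 3815 and 2334 CPM in Stress libraries and 2280 CPM in the Dexamethasone library, against 599 and 332 CPM in Control libraries. Vps37b had 452, 750 and 426 CPM in Stress libraries and 156 CPM in the Dexamethasone library, against 96.3 and 78.9 CPM in Control libraries. Eftud2 had 98.0, 210 and 99.2 CPM in Stress libraries and 617 CPM in the Dexamethasone library, against 58.9 and 73.2 CPM in Control libraries. All 10 genes had every Stress library above both Control libraries in this cluster, against 14.0% of all genes, and 9 (all but Eprs) had the Dexamethasone library above both, against 41.7%. Dexamethasone values were inside or under the Stress range for all but Eftud2 and Ncapd3.

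In cluster 9, Arih1 had 613, 597 and 900 CPM in Stress libraries and 858 CPM in the Dexamethasone library, against 439 and 345 CPM in Control libraries, and Ell2 had 86.8 to 111 CPM in Stress and 105 CPM in Dexamethasone, against 0 and 20.3 CPM in Control. Of the 10 genes, 2 (Arih1 and Ell2) had every Stress library above both Control libraries in cluster 9, against 16.0% of all genes. Whether the clusters differ in their response was not tested.

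Fitted within clusters, the Stress to Control log2 fold change of Arih1 was 2.39 ± 0.24 in cluster 12, 2.49 ± 0.30 in cluster 11 and 0.79 ± 0.34 in cluster 9, again as a description. In cluster 12 no test of Dexamethasone is given, since its Control libraries had 9 and 8 nuclei, under the 10 asked of other classes, and since Arih1 and Nup210l lead the cluster; the fitted log2 fold change of Arih1 there was 4.12 ± 0.33 against Control and 1.65 ± 0.27 against Stress. In cluster 11, edgeR called 2 of the 10 genes higher in Dexamethasone than in Control (Arih1 by 2.15 ± 0.37, adjusted p 0.0108; Eftud2 by 3.08 ± 0.41, adjusted p 0.00175), where 0.375% of 6126 genes were called higher. In cluster 9 it called 0 of the 5 tested, where 0.960% of 1875 genes were called higher, with 2 of the 5 at an unadjusted p under 0.05. The Control nuclei of both clusters helped to choose the genes. These counts and adjusted p-values are therefore a description, and no call is read from them. Against Stress, the Dexamethasone difference of Arih1 was -0.35 ± 0.36 in cluster 11 (edgeR adjusted p 0.765) and 0.23 ± 0.40 in cluster 9 (adjusted p 0.900). Eftud2 was higher than in Stress by 2.11 ± 0.37 in cluster 11 (adjusted p 0.0119), the 1 gene of 10 called there, where 0.457% of all genes were called higher. The Stress nuclei also took part in the choice of the genes, so the values against Stress are a description too. How much the unequal spread over clusters adds to the pooled Dexamethasone values was not tested.

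**Figure D3:**
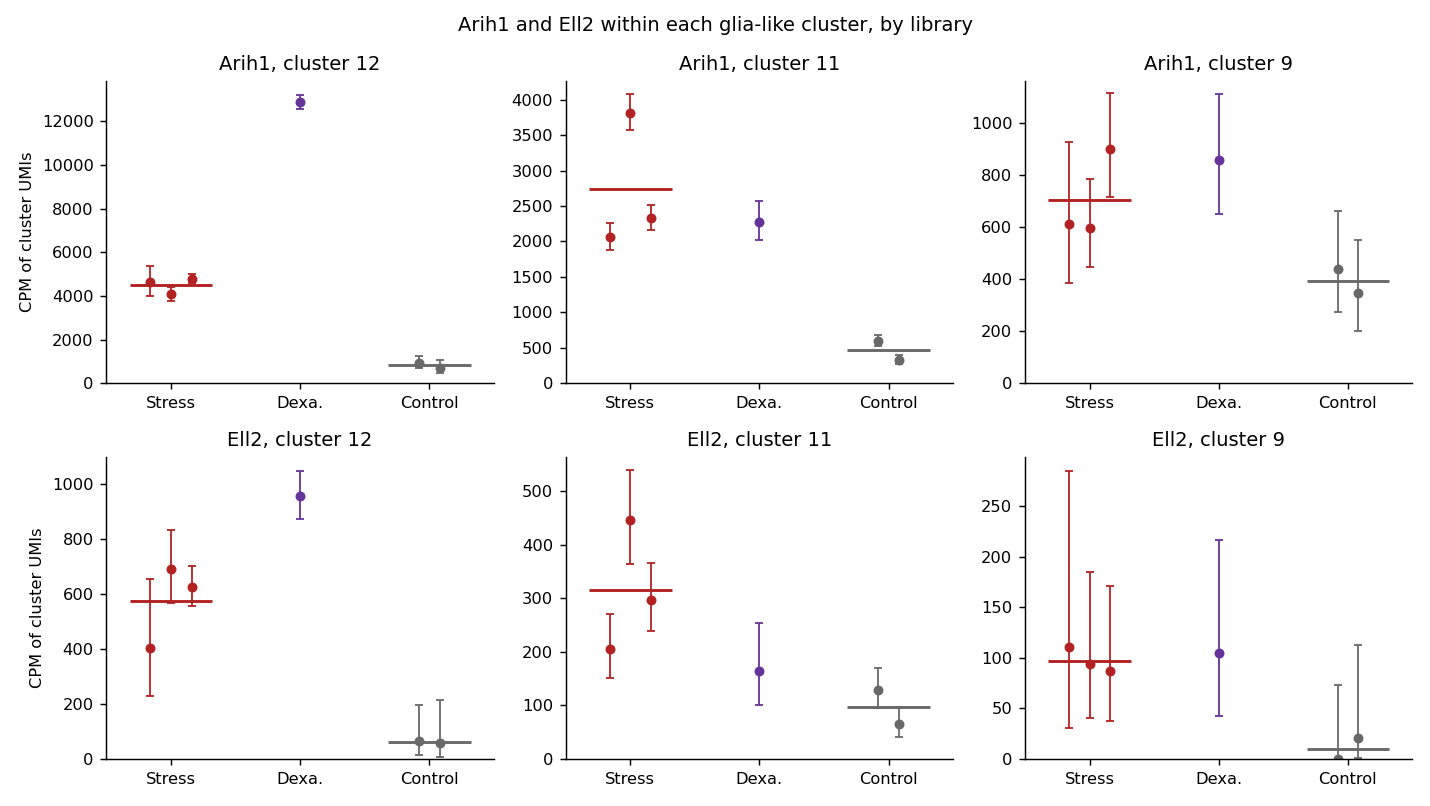
Arih1 (upper row) and Ell2 (lower row) in glia-like clusters 12, 11 and 9, in CPM on linear axes that differ between panels; points are libraries with exact 95% Poisson intervals, and horizontal lines are means of Stress and of Control. Arih1 stands at 12884 CPM in the Dexamethasone library in cluster 12, and within the Stress range (2063 to 3815 CPM) in cluster 11, where it had 2280 CPM.

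Barcodes with more than 5% mitochondrially encoded UMIs, which the main filter had left out, also had all 10 genes above Control. Assigned to glia by the same markers, they numbered 242, 130 and 139 in Stress libraries, 92 in the Dexamethasone library and 307 and 288 in Control libraries. Arih1 had 3127, 3544 and 4406 CPM there in Stress libraries and 6354 CPM in the Dexamethasone library, against 651 and 404 CPM in Control libraries. All 10 genes had every Stress library, and the Dexamethasone library, above both Control libraries, against 15.1% of all genes for Stress and 37.6% for Dexamethasone. For the genes of few UMIs the margin was smaller here. Nup210l had 45.6, 27.5 and 39.6 CPM in Stress libraries and 268 CPM in the Dexamethasone library, against 19.2 and 25.7 CPM in Control libraries, and Mapk4 averaged 27.2 CPM over Stress libraries and had 74.3 CPM in the Dexamethasone library, against a mean of 13.8 CPM over Control libraries. With no mitochondrial filter, the fitted Stress to Control fold was 2.38 for Nup210l and 2.84 for Mapk4, against 6.25 and 6.92 with the filter. These barcodes come from the same 6 libraries and are not further replicates.

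Neuron-like nuclei numbered 30, 89 and 95 in Stress libraries, 64 in the Dexamethasone library and 125 and 60 in Control libraries. Arih1 had 346, 286 and 452 CPM in Stress libraries and 591 CPM in the Dexamethasone library, against 275 and 325 CPM in Control libraries, so Stress and Control overlapped. Vps37b had 22.7, 15.8 and 60.1 CPM in Stress libraries and 36.7 CPM in the Dexamethasone library, against 12.1 and 17.6 CPM in Control libraries. Coq10b had 39.7, 22.3 and 52.0 CPM in Stress libraries and 38.8 CPM in the Dexamethasone library, against 24.2 and 26.4 CPM in Control libraries. Both again overlapped between Stress and Control. Of the 8 genes that passed the filter on low counts (not Rrm1 and Nup210l), the Stress to Control log2 fold changes ran from -0.55 ± 0.35 for Mapk4 to 1.28 ± 0.63 for Vps37b, with Arih1 at 0.23 ± 0.22; the low values in neurons helped to choose the genes. The test called 0 of 7519 genes (0%) in neuron-like nuclei, with 761 at an unadjusted p under 0.05 and 16 called by DESeq2.

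Dexamethasone against Control in neuron-like nuclei was not itself used to choose the genes. It shares its Control libraries with the neuron-like Stress contrast that was, so its counts and adjusted p-values are a description. By edgeR's quasi-likelihood test 0 of 10 were called, where 0.470% of 8507 genes were; 1 of the 10 had an unadjusted p under 0.05, and DESeq2 called 0. Arih1 was at 0.88 ± 0.27 (log2; adjusted p 0.203), Vps37b at 1.25 ± 0.78 (adjusted p 0.557), Nup210l at 0.78 ± 0.80 (adjusted p 0.758) and Eprs at -0.55 ± 0.39 (adjusted p 0.614). With no mitochondrial filter on the nuclei, 5 genes were called higher (Arih1, Ell2, Coq10b, Eftud2 and Nup210l), where 2.01% of 12529 genes were. The neuron-like nuclei differed in makeup and depth between these groups. A shallow cluster led by Nmu (median 993 UMIs over all libraries) held 42 of the 64 Dexamethasone nuclei, against 8 and 5 nuclei in Control 1 and 2. The median neuron-like nucleus had 977.5 UMIs in the Dexamethasone library, against 2792 and 4309.5 UMIs in Control libraries. The part of this in the values was not tested. Whether the Dexamethasone response itself differs between glia and neurons was not tested either.

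Other cell classes of the same libraries were tested between Stress and Control where each had at least 10 nuclei in every such library, and none of the 10 genes that passed the filter on low counts (4 in epithelium, 4 in smooth muscle, 3 in fibroblasts and 1 in lymphatic endothelium) was called, by edgeR or by DESeq2. In epithelium-like nuclei 0.109% of 2762 genes were called. There Ell2 had 363, 646 and 599 CPM in Stress libraries, against 249 and 82.8 CPM in Control libraries (log2 1.48 ± 0.41, edgeR adjusted p 0.187), and Coq10b had 291, 406 and 322 CPM in Stress libraries, against 181 and 138 CPM in Control libraries (1.10 ± 0.36, adjusted p 0.265). Vps37b had 382, 504 and 357 CPM in Stress libraries, against 317 and 55.2 CPM in Control libraries (0.90 ± 0.43, edgeR adjusted p 0.524). All 3 were higher in every Stress library than in both Control libraries, without passing the correction. Control 2 had 23 epithelium-like nuclei, with 3 UMIs of Ell2, 5 of Coq10b and 2 of Vps37b. The share of all genes with such a lack of overlap in epithelium was not computed, so nothing is read from it. By edgeR, 2 of the 4 genes tested there had an unadjusted p under 0.05. Arih1 in epithelium was at -0.05 ± 0.33 (adjusted p 0.987). Mapk4 had no UMI in epithelium-like or lymphatic endothelium-like nuclei of any library.

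In smooth muscle-like nuclei 0.353% of 2836 genes were called between Stress and Control. Arih1 had 427, 366 and 440 CPM in Stress libraries, against 567 and 466 CPM in Control libraries (log2 -0.43 ± 0.26, edgeR adjusted p 0.603), and Eprs was at -1.13 ± 0.46 (adjusted p 0.372), the 1 gene of the 4 tested with an unadjusted p under 0.05. In these nuclei of the Dexamethasone library Arih1 stood at 2450 CPM. Eftud2 stood there at 243 CPM, with 35.0, 48.3 and 27.9 CPM in Stress libraries and 38.4 and 50.0 CPM in Control libraries. There 8 of the 10 genes were above both Control libraries, where 41.0% of all genes were. The summed level of the 15 glia markers in smooth muscle-like nuclei moved with this, at 1055 CPM in the Dexamethasone library, 371, 145 and 147 CPM in Stress libraries and 327 and 233 CPM in Control libraries; its part in these values was not tested.

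Fibroblast-like nuclei had 1.45% of 1725 genes called. Coq10b had 197, 195 and 369 CPM in Stress libraries, against 76.4 and 73.6 CPM in Control libraries (log2 1.68 ± 0.52, edgeR adjusted p 0.157), the 1 gene of 3 tested with an unadjusted p under 0.05. Lymphatic endothelium-like nuclei had 0 of 524 genes called (0%), with 44 at an unadjusted p under 0.05 and 0 by DESeq2. Arih1 had 587, 656 and 1677 CPM in Stress libraries, against 646 and 450 CPM in Control libraries (0.88 ± 0.54, adjusted p 0.596). The summed glia markers in lymphatic endothelium-like nuclei were 147, 139 and 2191 CPM in Stress libraries and 99.4 and 45.0 CPM in Control libraries, so that Stress 3 was high in both; the part of these markers was not tested.

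Levels were set over 6 classes: glia, neuron, epithelium, smooth muscle, fibroblast and lymphatic endothelium. Glia-like nuclei had the highest mean CPM for 8 of the 10 genes in Stress and for 9 in the Dexamethasone library, against 0 in Control. Since the genes were chosen for a rise in glia from Control to Stress, these counts are a description. The share over all genes was not computed, and nothing is read from them. In Control, Arih1 in glia (489 ± 178 CPM, SD, n = 2) was the fourth of the 6 classes, and epithelium was the highest (609 ± 35.7 CPM). In Stress, Arih1 in glia was at 3028 ± 703 CPM (SD, n = 3), 3.11 times the next class, lymphatic endothelium, which had 973 ± 610 CPM. Ell2 in Stress was higher in epithelium (536 CPM) than in glia (380 CPM). Mapk4 was highest in smooth muscle-like nuclei in all 3 groups, with 161, 324 and 258 CPM in Stress libraries and 290 CPM in the Dexamethasone library, against 202 and 283 CPM in Control libraries. The 6 classes are those with enough nuclei to compare, and some smaller classes stood above glia in Stress. In macrophage-like nuclei, Vps37b had 1559, 560 and 1077 CPM in Stress libraries (27, 21 and 25 UMIs in 17, 26 and 19 nuclei) and 1411 CPM in the Dexamethasone library (11 UMIs in 5 nuclei), against no UMI in the 6 and 4 nuclei of the Control libraries. Ncapd3 in cycling-cell nuclei averaged 181 ± 87.5 CPM in Stress (SD, n = 3), against 383 ± 62.2 CPM in Control (SD, n = 2). Nup210l in vascular endothelium-like nuclei (76.4 CPM) and Eftud2 in enteroendocrine-like nuclei (283 CPM) rest on 2 UMIs each in Stress.

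**Figure D4:**
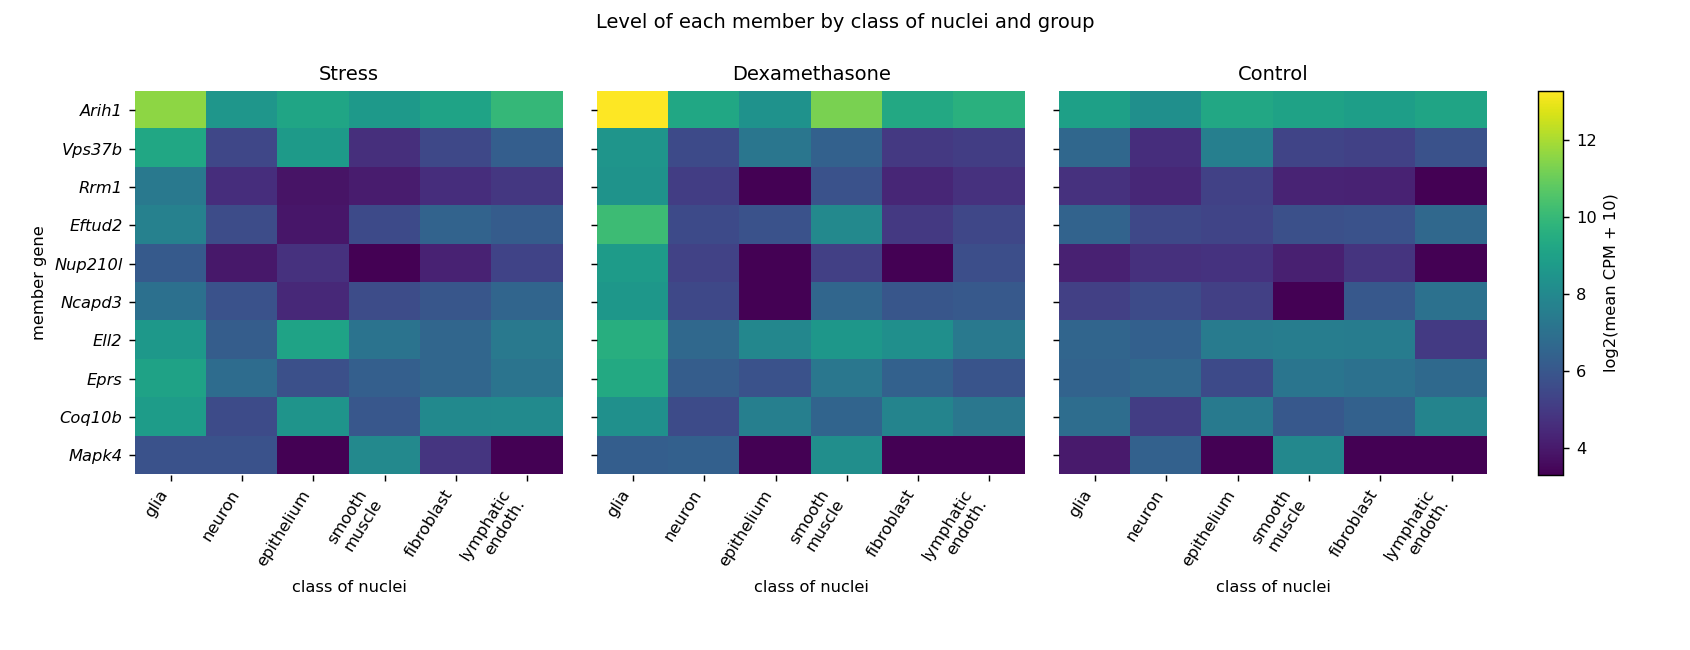
Heat map of the mean level, as log2(mean CPM + 10), of each gene (rows) in 6 classes of nuclei (columns) for Stress (3 libraries), Dexamethasone (1) and Control (2), with 1 colour scale for all panels; colours are to be compared within a gene. Arih1 stands out in glia-like nuclei of Stress (mean 3028 CPM) and Dexamethasone (9813 CPM) and in Dexamethasone smooth muscle-like nuclei (2450 CPM), against 489 CPM in Control glia-like nuclei; the Dexamethasone epithelium column rests on 3 nuclei.

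To count the genes detected per nucleus, each glia-like nucleus was thinned to 1000 UMIs and shallower nuclei were left out. This kept 98, 114 and 178 Stress nuclei, 109 Dexamethasone nuclei and 174 and 135 Control nuclei. Such a count rises when each gene is higher, whether or not the genes share nuclei. No expected share was computed for it, so it does not tell whether the genes occur together. At this depth 30.6%, 40.4% and 42.7% of the nuclei in Stress 1, 2 and 3 had UMIs of 3 or more of the 10 genes, and 54.1% in the Dexamethasone library (exact 95% binomial interval 44.3% to 63.7%), against 6.32% and 0.741% in Control 1 and 2. Group means were 37.9% ± 6.43 in Stress (SD, n = 3) and 3.53% ± 3.94 in Control (SD, n = 2). The mean number of the genes per nucleus was 1.70, 2.18 and 2.36 in Stress libraries and 2.95 in the Dexamethasone library, against 0.891 and 0.615 in Control libraries. At 5 or more genes the shares were 4.08%, 7.89% and 9.55% in Stress and 23.9% in Dexamethasone, against none in either Control library. With no thinning, 45.2%, 71.2% and 78.8% of nuclei in Stress and 86.8% in Dexamethasone had 3 or more, against 20.2% and 21.0% in Control.

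The neuron-like nuclei of the same libraries give a level for comparison at the same depth. There 3 or more of the genes were seen in 0%, 4.55% and 3.41% of 24, 88 and 88 nuclei in Stress and in 0% of 31 nuclei in Dexamethasone, against 0% of 106 and 55 nuclei in Control. The mean number of genes per neuron-like nucleus was 0.708, 0.705 and 0.670 in Stress libraries and 0.677 in the Dexamethasone library, against 0.632 and 0.655 in Control libraries. The genes were chosen on the difference between these classes in Stress and Control, so the Stress and Control values are a description.

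Within treated libraries the genes were seen more often in the nuclei that also held Arih1. Thinned nuclei with Arih1 held a mean of 1.71, 1.79 and 1.88 of the other 9 genes in Stress 1, 2 and 3, against 0.617, 0.667 and 1.02 in nuclei without Arih1. In the Dexamethasone library the means were 2.55 with Arih1 and 0.739 without. In Control libraries they were 0.541 and 0.353 with Arih1 and 0.540 and 0.366 without. At least 1 other gene of the list was seen in 82.4%, 80.2% and 80.5% of Stress nuclei with Arih1, against 36.2%, 48.5% and 60.0% without it. Pair by pair, joint detection with Arih1 within libraries exceeded the product of the 2 shares by a ratio between 1.08 for Mapk4 and 1.25 for Ncapd3, in 6 of 6 libraries for Ncapd3, in 5 for Vps37b, Nup210l, Ell2 and Coq10b, in 4 for Rrm1, Eftud2 and Eprs and in 3 for Mapk4. These ratios are a description: the nuclei were thinned to 1 depth, the clusters were not held apart, and the genes were chosen on these nuclei.

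**Figure D5:**
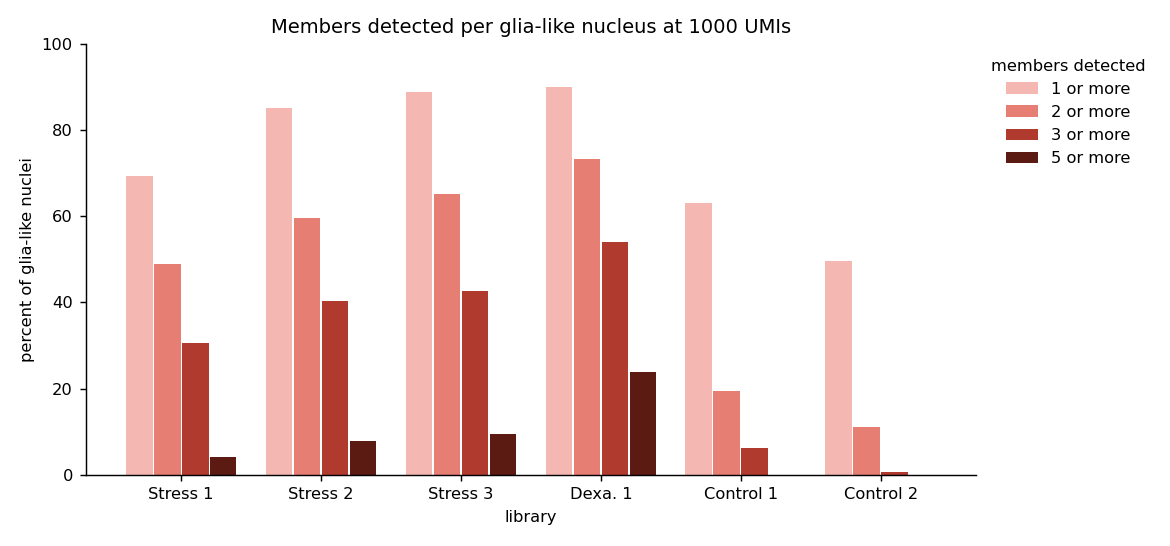
Percent of glia-like nuclei thinned to 1000 UMIs (y axis) in which at least 1, 2, 3 or 5 of the 10 genes were detected (bars, light to dark), for each Stress, Dexamethasone and Control library (x axis). At 3 or more genes the Stress libraries lie at 30.6% to 42.7% and the Dexamethasone library at 54.1%, against 6.32% and 0.741% in Control. Such shares rise with the level of each gene.

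Partners of the 10 genes in the same complexes and pathways mostly did not move with them. Of 148 partners listed, 81 were tested between Stress and Control in glia-like nuclei and 4 were called, all higher, which is 4.94% of those tested where 2.09% of all 6545 genes were called in either direction. Their median log2 fold change was 0.07, against -0.01 over all genes tested. In the super elongation complex of Ell2, 2 of 10 partners rose: Aff1, a scaffold of the complex, by 1.47 ± 0.28 (edgeR adjusted p 0.0138), and Ccnt1, the cyclin of its kinase, by 1.07 ± 0.26 (adjusted p 0.0467). Aff1 stood at 506, 597 and 614 CPM in Stress libraries and 875 CPM in the Dexamethasone library, against 277 and 123 CPM in Control libraries. Nup98, a nuclear pore protein, rose by 1.41 ± 0.31 (adjusted p 0.0339), as 1 of 16 pore genes tested, and stood at 355, 481 and 766 CPM in Stress libraries and 887 CPM in the Dexamethasone library, against 252 and 144 CPM in Control libraries.

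Impdh2, an enzyme of guanine nucleotide synthesis listed with Rrm1, rose by 3.34 ± 0.57 (edgeR adjusted p 0.00892), 1 of 3 genes tested of that list; it had 10, 25 and 48 UMIs in Stress libraries and 10 in the Dexamethasone library, against 3 and 1 in Control libraries. None of the 4 kept its call without Stress 3, where the adjusted p was 0.0703 for Impdh2, 0.0818 for Aff1, 0.157 for Nup98 and 0.22 for Ccnt1. Without Stress 2, or without Control 2, Impdh2 alone was called (adjusted p 0.046 and 0.0374), and Ccnt1 lost its call without any 1 of the 5 libraries. No partner was called among 18 ubiquitin ligases, cullins and E2 enzymes around Arih1, 5 ESCRT-I subunits, 4 U5 proteins, 3 condensin genes, 11 tRNA synthetases and scaffold proteins, 5 coenzyme Q genes and 6 genes around the atypical MAP kinases. The tRNA synthetase list had a median log2 fold change of -0.22, while Eprs itself was at 2.64.

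Against Control, Dexamethasone called 7 of 91 partners tested (7.69%, all higher), where 6.09% of the 7699 genes were called in either direction. Aff1 rose by 2.21, Nup98 by 2.25, Ccnt1 by 1.71, Rnf217 by 1.34 and Aff4 by 1.32 on the log2 scale, and Pak1 and Mapkapk2 were the others. Aff1, Ccnt1 and Nup98 were called in both contrasts, which share the Control libraries.

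The genes most like Arih1 over nuclei were found by the mean of 6 within-library correlations of log-normalised values over glia-like nuclei, among 2834 genes seen in at least 10% of the nuclei of every library. The highest were Nr4a2 (mean r 0.407; 0.174 to 0.563 over libraries), Ifrd1 (0.374), Rab6a (0.370), Ccnl1 (0.365) and Usp37 (0.350). Of the 9 other genes of the list, Vps37b came at rank 15 (0.310), Ell2 at 16 (0.300), Coq10b at 29 (0.276) and Eftud2 at 189 (0.130), and the others were seen in too few nuclei. Nuclei of a library share their depth range and free RNA, and these correlations are weak.

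Over 42 pairs of class and library, the levels most like those of Arih1, as log2(CPM + 10) among 6167 genes, were Gm37245 (r 0.843), Nup98 (0.786), Cstf3 (0.784), Usp37 (0.764) and Jmjd1c (0.757). Here Rrm1 came at rank 17 (0.705) and Nup210l at 22 (0.693), while Mapk4 came at 2785 (0.088). The pairs share libraries, so these values are a description with no test. Usp37 was among the 5 genes nearest to Arih1 by both measures.

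Markers of other cell classes in glia-like nuclei were summed as a check on the makeup of these nuclei. Every Stress library was above both Control libraries for the sums of smooth muscle (235, 247 and 421 CPM in Stress and 794 CPM in Dexamethasone, against 171 and 205 CPM in Control), lymphatic endothelium (90.2, 103 and 149 CPM in Stress and 218 CPM in Dexamethasone, against 59.7 and 59.3 CPM), pericyte and macrophage markers. The macrophage sum, of 11 markers, was 32.2, 25.1 and 30.9 CPM in Stress and 76.5 CPM in Dexamethasone, against 10.7 and 16.0 CPM in Control, and the pericyte sum 55.0 to 67.0 CPM in Stress and 67.7 CPM in Dexamethasone, against 44.8 and 43.4 CPM. In glia-like nuclei 1 marker each of the lymphatic endothelium, pericyte and macrophage lists had no UMI (Ccl21a, Kcnj8 and Cd163), and no smooth muscle marker was at 0. The neuron sum overlapped between groups, with 419 to 553 CPM in Stress and 484 CPM in Dexamethasone, against 612 and 420 CPM in Control. The sum of the 15 glia markers was itself higher, at 7867, 9136 and 8823 CPM in Stress and 8001 CPM in Dexamethasone, against 6905 and 6051 CPM in Control. The part of these sums in the levels of the 10 genes was not tested.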

How the data were processed

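The study measured single-nucleus RNA in 6 libraries of sorted colon nuclei. The values are counts of UMIs per gene and barcode, deposited by the authors; per the file headers they were made with Cell Ranger 4.0.0 (Control and Stress) and 5.0.1 (Dexamethasone), and the submitters' processing notes name Cell Ranger 5 and the mm10 build. Whether introns were counted is not given in the sources used here. The other deposited values are names of genes and barcodes.

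Barcodes were kept as nuclei from 300 genes up and with a mitochondrially encoded share of UMIs of 5% or less, and scrublet calls removed 31 doublets of 3461 nuclei. Counts were scaled, log-transformed and clustered with scanpy 1.11.5 (2000 variable genes without the 10 genes and listed immediate early and glucocorticoid target genes, 30 components, 15 neighbours, Leiden resolution 1.0), giving 23 clusters, named from marker lists. The naming thresholds were set with the clusters known. UMIs were summed per library and class, passed through filterByExpr, scaled by TMM and tested in edgeR 4.0.16 (quasi-likelihood F-test, Benjamini-Hochberg over all genes tested, threshold 0.05; R 4.3.3); DESeq2 1.42.0 was an alternative. Scripts were tested on simulated data. Sums per library ran from 310277 to 873097 UMIs in glia-like nuclei; intervals cover counting error only.

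The 10 genes, the partner lists, the markers and the tests were chosen with earlier results of these data known. Named partners are the up to 10 of smallest adjusted p among those called; genes like Arih1 are the 5 of highest correlation, sex-linked genes left out. Alternatives were other filters on nuclei and genes, thinning, doublets kept, other resolutions, a replicate block, each library left out and each cluster alone. Cluster-wise Dexamethasone to Stress fits, and a Penk and Tac1 cluster counted as neuron-like, were added after seeing the data.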

Additional observations from a re-analysis of the deposited data

Results flagged for a closer look

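In 4 cases every Stress library lay below both Control libraries in another class, while all Stress libraries lay above both in glia-like nuclei; the difference between the classes was not tested. Of all genes with at least 5 UMIs over these libraries, 9.48% lay below Control in this way in neuron-like, 14.1% in epithelium-like and 9.34% in smooth muscle-like nuclei, and 3 of the 4 cases rest on few UMIs. In smooth muscle-like nuclei, Arih1 averaged 411 CPM in Stress and 517 CPM in Control, a difference of -106 CPM, and Vps37b differed by -16.0 CPM on 2 or 3 UMIs per library. In neuron-like nuclei, Nup210l differed by -10.1 CPM, with 0, 5.56 and 11.4 CPM in Stress and 13.8 and 17.6 CPM in Control. In epithelium-like nuclei, Ncapd3 differed by -14.9 CPM, on 1 to 7 UMIs per library.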

How the results depend on the processing

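The number of genes called between Stress and Control in glia-like nuclei was 137, and it was 32 under the stricter filter on nuclei, 297 with no mitochondrial filter, 254 without Control 1 and Stress 1, 29, 7 and 10 within clusters 11, 12 and 9 alone, and 35 to 174 with 1 library left out. In neuron-like nuclei it was 0, and it was 16 with DESeq2, 120 with no filter on low counts, 7 after thinning, 11 with no mitochondrial filter, 70 without Control 1 and Stress 1 and 0 to 2 with 1 library left out. With the replicate number as a block (replicate block), 155 genes were called in glia-like and 74 in neuron-like nuclei. Deviations of same-numbered libraries from their group means correlated at -0.157 (Stress 1, Control 1) and -0.0215 (Stress 2, Control 2). With 2 Control libraries these deviations mirror each other (0.157 for Stress 1 with Control 2). The check therefore cannot tell whether equal numbers mark pairs, and the labels do not say so. The 10 genes called in Dexamethasone against Control were 2 in cluster 11 alone and 0 in cluster 9 alone; the 5 called against Stress were 1 and 0 there. In neuron-like nuclei, Dexamethasone against Control called 5 with no mitochondrial filter and 1 with listed genes kept for clustering. The 4 partners were 0 under the stricter filter and 0 to 3 with 1 library left out. The share of nuclei with 3 or more genes was 18.7%, 56.2% and 65.1% in Stress at 500 UMIs, 2000 UMIs and no thinning, 39.5%, 69.2% and 86.8% in Dexamethasone, and 13.3% and 20.6% in Control at 2000 UMIs and no thinning. Signs turned for Dexamethasone against Stress in cluster 11 alone for Arih1 (-0.35), Rrm1 (-0.59), Nup210l (-0.03), Ell2 (-1.02), Eprs (-1.95) and Mapk4 (-0.64), and in cluster 9 alone for Eprs (-0.82). For Dexamethasone against Control in neuron-like nuclei they turned under the stricter filter for Arih1 (-0.24), Vps37b (-3.85), Ell2 (-1.40) and Coq10b (-6.15). They also turned for Eftud2 with no mitochondrial filter (1.36), doublets kept (2.05), Leiden resolution 0.5 (2.02), listed genes kept (2.13) and the Penk and Tac1 cluster counted as neuron-like (2.02). The same held for Ncapd3 after thinning (0.29), with no mitochondrial filter (0.11) and with listed genes kept (0.09), for Eprs with no mitochondrial filter (0.69), for Mapk4 after thinning (0.02), and, without Control 1 or without Control 1 and Stress 1, for Ell2 (-0.20; up to 0.77 with another library left out) and Mapk4 (0.28; down to -0.45). The cause was not tested. The 10 genes called in Dexamethasone against Control in glia-like nuclei were 9 or 10 under every alternative run other than the single clusters. For the reasons given above, nothing is read from that count, and no test is given for cluster 12. Depth limits the low genes: Nup210l, Mapk4 and Rrm1 had 1 to 8 UMIs per Control library in glia-like nuclei.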

Other observations

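An unnamed cluster led by Penk and Tac1 held 4, 11 and 9 nuclei in Stress libraries, 6 in the Dexamethasone library and 32 and 2 in Control libraries. Eftud2, the spliceosomal GTPase, had 594 CPM (69 UMIs) there in the Dexamethasone library, 0, 34.2 and 20.4 CPM in Stress libraries and 22.5 and 0 CPM in Control libraries. Arih1 had 1798 CPM there in the Dexamethasone library, 182, 314 and 286 CPM in Stress libraries and 417 and 406 CPM in Control libraries. The summed glia markers were 1773 CPM in the Dexamethasone library, 1345, 1164 and 1920 CPM in Stress libraries and 1465 and 1083 CPM in Control libraries, so they did not stand apart. The 69 Eftud2 UMIs lay in 2 of the 6 Dexamethasone nuclei. These nuclei are few, and no test was made.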
